A study of Mus musculus with 38 samples.

Results

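Matrix-rich XEN-like single cells were wells of the SCRB-seq plates taken after 60 h, 72 h and 96 h of retinoic acid (RA) exposure. SCRB-seq is a 3′-end single-cell RNA-seq method in which each captured molecule carries a unique molecular identifier (UMI), so that it is counted once. A well was matrix-rich when it held more than 2000 UMIs and when Sparc, Col4a1, Col4a2, Lama1, Lamb1 and Lamc1, which encode secreted proteins of the basement membrane, together made up at least 0.75% of its UMIs. This was the case for 104 of the 645 wells above 2000 UMIs at these 3 time points, out of 2448 such wells over all 9 time points of the series. Because the wells were selected on their own measured values, the 6 genes were left out of the results, and each contrast with the other wells of the same plate is a description without a test.

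All cells came from E14 mouse embryonic stem cells (mESCs). These were held in the pluripotent state in 2i medium with 1 µM of the MEK inhibitor PD0325901, 3 µM of the GSK3 inhibitor CHIR99021 and 1000 U/ml LIF (2i/L, 0 h), and were then moved to N2B27 medium with 0.25 µM all-trans RA and without inhibitors or LIF, with fresh medium at 48 h. Single cells were sorted on a Hoechst stain into the 384 wells of 1 plate per time point. Each time point was 1 culture, so wells are not replicates of a condition. Levels that did not enter the selection came from bulk libraries of sorted cells: PDGFRA+/CD24- (XEN-like) and PDGFRA-/CD24+ (ectoderm-like) cells after 96 h, with 2 biological replicates each, and 4 sorted fractions after 72 h with 1 library each (PDGFRA+/CD24- cells, and PDGFRA- cells divided into terciles of CD24). All sorted fractions came from cultures in 0.25 µM RA, and 2 libraries of mESCs in 2i/L served as the untreated state.

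Extraembryonic endoderm (XEN) is the lineage that lines the yolk sac. Its parietal branch is known for secreting a thick basement membrane of type IV collagen and laminin, and its visceral branch for taking up proteins and lipids through endocytic receptors. Collagen chains are hydroxylated, glycosylated and folded with dedicated chaperones in the endoplasmic reticulum (ER) before they leave the cell.

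Matrix-rich wells were few at 60 h and common at 96 h. They made up 5 of 273 wells at 60 h (1.83%, exact Clopper-Pearson 95% interval 0.597% to 4.22%), 18 of 235 at 72 h (7.66%, 4.6% to 11.8%) and 81 of 137 at 96 h (59.1%, 50.4% to 67.4%). At 48 h there was 1 such well of 277, and at 0 h there was none of 282, which allows a share of up to 1.06%. All intervals and limits given for wells cover counting error only. The summed share of the 6 genes had a median of 1.05% in the matrix-rich wells at 60 h, 1.39% at 72 h and 1.47% at 96 h, with a highest value of 3.5%. In the other wells the medians were 0.0793%, 0.0893% and 0.298%. Just inside and just outside the threshold lay 0.798% and 0.728% at 60 h, 0.813% and 0.643% at 72 h, and 0.763% and 0.698% at 96 h. At 96 h, 3 wells lay between 0.65% and 0.75% and 4 between 0.75% and 0.85%. The lowest share of any well at that time was 0.101%, so no kept well of the 96 h plate was without UMIs of these genes.

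**Figure D1:**
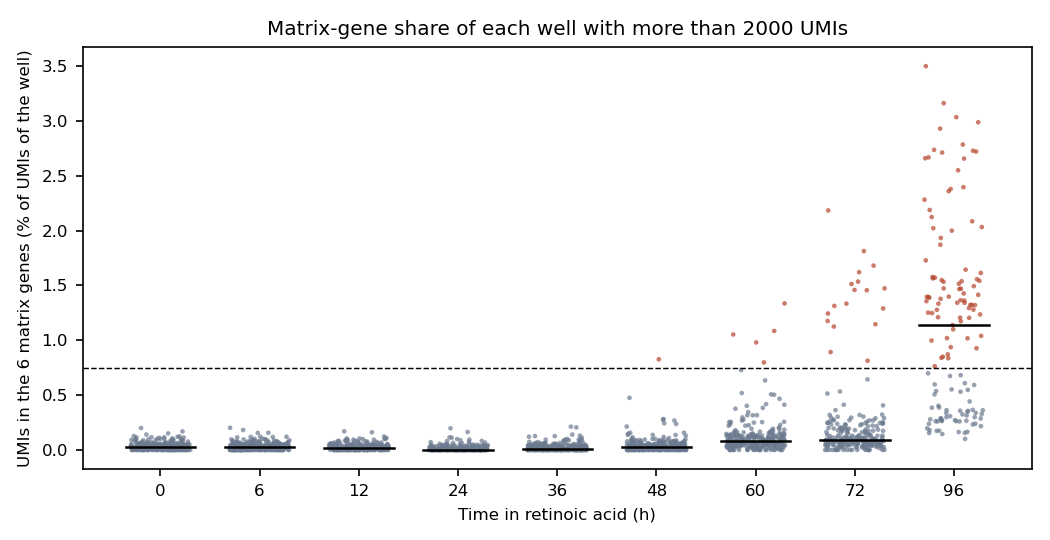
Share of each well's UMIs in the 6 matrix genes (y axis, %) against hours in RA (x axis), for every well above 2000 UMIs; the dashed line is the 0.75% threshold, matrix-rich wells are red, other wells grey, and black bars are medians over all kept wells. At 96 h, 81 of 137 wells lie above the line, against 5 of 273 at 60 h.

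Depth differed between the wells. Matrix-rich wells had a median of 7219 UMIs at 60 h, 3654 at 72 h and 4361 at 96 h, and the other wells 4336, 3724 and 3803. The 60 h values thus rest on 5 wells with 39184 UMIs in all, the 72 h values on 80667 UMIs and the 96 h values on 477389. On the 96 h plate 247 of the 384 wells held 2000 UMIs or fewer and were left out. Transcripts of 84 ribosomal protein genes took 10.1% and 10.7% of UMIs in matrix-rich and other wells at 60 h, 11.3% and 12.1% at 72 h, and 11.6% and 10.6% at 96 h. Malat1, a nuclear RNA, was lower in matrix-rich wells at each time, for example 46.4 against 63.1 UMIs per 10000 at 96 h. All 9 plates use the same 384 well names, which name positions and no cell. Doublets were not called.

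Matrix-rich wells were not spread evenly over the plates at 60 h and 72 h. All 5 wells at 60 h lay in plate rows A to H, which held 157 kept wells, and none lay among the 116 kept wells of rows I to P. At 72 h, 17 of 130 wells in rows A to H were matrix-rich (13.1%, 7.81% to 20.1%) and 1 of 105 in rows I to P (0.952%, 0.0241% to 5.19%), while the median depth was 3734 and 3655 UMIs. At 96 h the shares were 58.9% and 59.4%. The part of plate position in the results at 60 h and 72 h was not tested. Ratios within rows A to H are given beside a list ratio in the text where they differed from those of the whole plate by more than the counting interval or turned direction. They are also given for the XEN markers and collagen folding at 72 h and keratins at 60 h, where they lay within that interval.

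**Figure D2:**
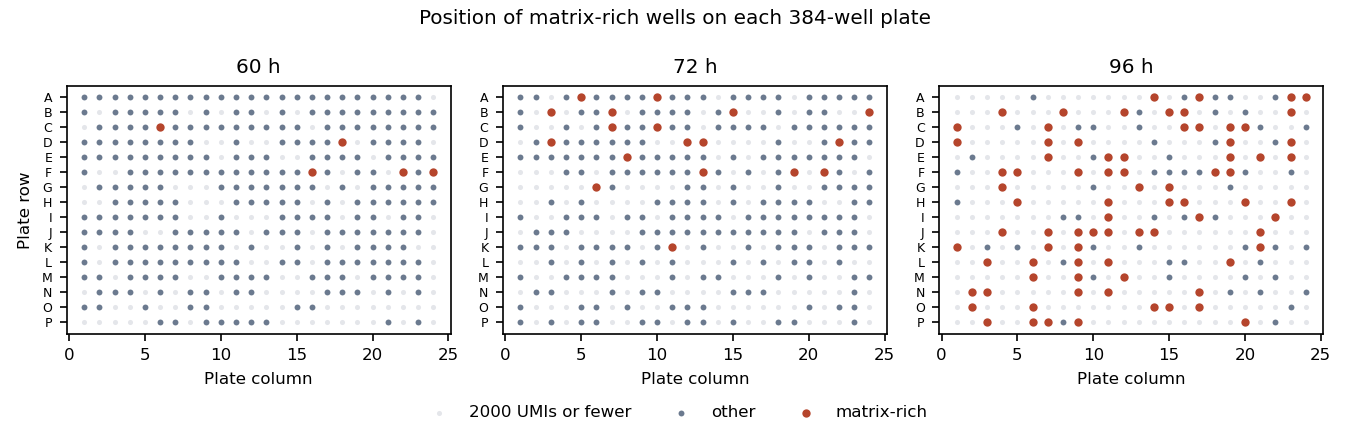
Position of each well on the 60 h, 72 h and 96 h plates (x axis, plate column; y axis, plate row), with matrix-rich wells in red, other kept wells in dark grey and wells of 2000 UMIs or fewer in light grey. At 72 h 17 of the 18 matrix-rich wells lie in rows A to H, and at 96 h 43 of 81.

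Levels below are pooled over the wells of a class and given as UMIs per 10000 UMIs outside the 6 matrix genes. Of 5036 genes with at least 20 UMIs on each of the 3 plates, 239 (4.75%) were at least 1.5-fold higher in matrix-rich wells on every plate, and 289 (5.74%) at least 1.5-fold lower on every plate. Since the wells were split by their own counts, nothing is read from these shares. Without the 60 h plate, whose 5 wells leave many genes at 0, 521 of 5159 genes (10.1%) were higher and 477 (9.25%) lower at both 72 h and 96 h. The counts were 553 and 551 without the 72 h plate, 528 and 1576 without the 96 h plate, and 195 and 157 within plate rows A to H. The median ratio over all genes compared was 0.578 at 60 h, 0.811 at 72 h and 1.07 at 96 h. At 60 h alone 4324 of 8167 genes (52.9%) were at least 1.5-fold lower and 1995 (24.4%) higher. At 72 h alone these were 2981 of 7303 (40.8%) and 1675 (22.9%). The 60 h plate thus adds little to a call of lower on every plate. A level of 0.258 UMIs per 10000 at 60 h, as for some genes named below, is 1 UMI in the 5 matrix-rich wells.

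The markers of XEN cells that the selection did not use were higher in the matrix-rich wells. Dab2, Gata4, Gata6, Sox17 and Pdgfra together reached 12.1 UMIs per 10000 at 60 h, 11.1 at 72 h and 15.2 at 96 h, against 2.39, 1.87 and 2.94 in the other wells and 0.0265 at 0 h. The ratio was 5.06 at 60 h (95% counting interval 3.66 to 6.86), 5.92 at 72 h (4.58 to 7.6) and 5.18 at 96 h (4.07 to 6.68). Within rows A to H at 72 h it was 7.3. All 4 markers that could be compared on every plate were past 1.5-fold higher, and Gata4 had too few UMIs at 72 h. In the 5 wells at 60 h these markers took 0.0614%, 0.0767%, 0.111%, 0.127% and 0.274% of UMIs. At 96 h the share had a median of 0.131% and a highest value of 0.7% in matrix-rich wells, and 0.0284% and 0.224% in the other wells. The ranges overlapped, since 4 of the 81 matrix-rich wells and 21 of the 56 other wells had no UMI of any of the 5 genes.

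Dab2, an endocytic adaptor required in the endoderm, had 6.96, 4.27 and 5.69 UMIs per 10000 in matrix-rich wells at 60 h, 72 h and 96 h, and 0.97, 0.929 and 1.37 in the other wells. The ratio at 96 h was 4.16 (2.9 to 6.13). Gata6, a transcription factor that specifies primitive endoderm, had 1.81, 1.63 and 3.69 UMIs per 10000 against 0.554, 0.424 and 0.644, a ratio of 5.72 at 96 h (3.43 to 10.2). Sox17, another endoderm transcription factor, had 2.13 against 0.402 UMIs per 10000 at 96 h, and Pdgfra, the receptor that marks primitive endoderm and was used for the sort of the bulk cells, 2.54 against 0.362. When each well was thinned to 2000 UMIs, Dab2 was found in 64.2% of matrix-rich wells at 96 h (52.8% to 74.6%), in 23.2% of the other wells and in 0 of 282 wells at 0 h. Gata6 was found in 46.9%, 8.93% and 0%. The 0 h wells, which serve as the background of cells that should lack these genes, had a median depth of 3938 UMIs. Foxa2, a further endoderm transcription factor, did not keep one direction over the plates. Its ratio was 9.28 at 60 h, 0.571 at 72 h and 1.49 at 96 h.

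**Figure D3:**
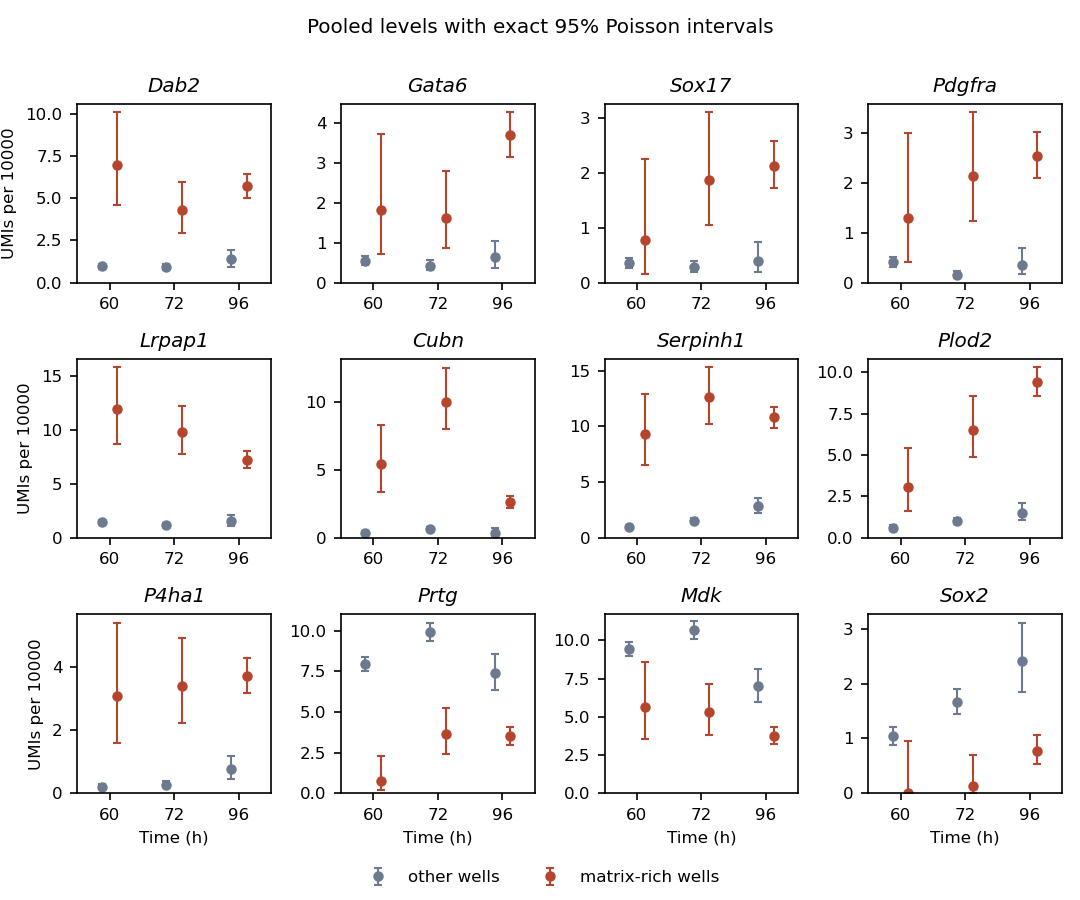
Pooled level of 12 genes (y axis, UMIs per 10000 UMIs outside the 6 matrix genes) at 60 h, 72 h and 96 h (x axis) in matrix-rich wells (red) and other wells of the same plate (grey), with exact 95% Poisson intervals for counting error. Dab2, Gata6, Sox17, Pdgfra, Lrpap1, Cubn, Serpinh1, Plod2 and P4ha1 lie higher in red at each time, and Prtg, Mdk and Sox2 lie lower.

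The endocytic receptor system was higher in matrix-rich wells. Cubn, Lrp2, Lrpap1 and Dab2, all 4 members compared of a list of 5, were past 1.5-fold higher on every plate. The list summed to 27.3, 27.1 and 18.8 UMIs per 10000 in matrix-rich wells and to 3.92, 3.21 and 4.63 in the other wells, a ratio of 6.98 (5.63 to 8.58), 8.45 (7.12 to 10) and 4.06 (3.34 to 4.98). Within rows A to H at 72 h the ratio was 10.3. Cubn encodes cubilin, a receptor for vitamin and lipoprotein uptake. It had 5.42 UMIs per 10000 at 60 h, 10.0 at 72 h and 2.6 at 96 h in matrix-rich wells, and 0.381, 0.636 and 0.362 in the other wells. Thinned wells with a Cubn UMI made up 72.2% of matrix-rich wells at 72 h (46.5% to 90.3%) and 28.4% at 96 h (18.9% to 39.5%). These intervals cover counting error only. Time, culture and plate cannot be told apart here, so no change over time is read from these shares. Lrpap1, the chaperone of the LDL receptor family, went from 11.9 to 9.8 and 7.24 UMIs per 10000 in matrix-rich wells, and Lrp2, the receptor megalin, was at 3.09, 3.01 and 3.22. The carrier proteins that mature yolk sac endoderm secretes stayed near 0. The 10 genes of that list summed to 0.516, 0.628 and 0.703 UMIs per 10000 in matrix-rich wells, less than the 4.84 of mESCs at 0 h, where nearly all of it was Apoe, and none could be compared on every plate. The ratio of this list at 96 h was 1.59, and 0.719 within rows A to H (0.229 to 2.46). Ttr, the thyroid hormone carrier, had 7 UMIs over all 81 matrix-rich wells at 96 h. The 1 member of the list with at least 20 UMIs on the 96 h plate was higher in matrix-rich wells, with a ratio of 3.18. At that time 29.5% of all genes compared were past 1.5-fold higher.

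Genes known from parietal endoderm were higher as well. The list summed to 7.99, 7.29 and 13.0 UMIs per 10000 against 1.54, 1.99 and 3.18, a ratio of 5.2, 3.66 and 4.1, and all 3 genes compared on every plate were past 1.5-fold higher. Pth1r, the receptor for parathyroid hormone-related protein, had 2.32, 2.01 and 3.86 UMIs per 10000 in matrix-rich wells and 0.185, 0.277 and 0.845 in the other wells. Plat, tissue plasminogen activator, had 2.17 against 0.402 at 96 h, a ratio of 5.4 (2.82 to 11.6), while at 72 h its interval of 0.738 to 3.33 included no difference. Fst, an inhibitor of activin, had 1 UMI in the 5 wells at 60 h and 2.89 and 4.9 UMIs per 10000 in matrix-rich wells at 72 h and 96 h, against 0.351 and 0.885.

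Enzymes and chaperones that prepare collagen were higher in matrix-rich wells, and 9 of the 11 compared were past 1.5-fold on every plate. The list summed to 42.3, 48.4 and 49.9 UMIs per 10000 against 11.2, 12.0 and 15.8, a ratio of 3.78 (3.21 to 4.44), 4.04 (3.6 to 4.52) and 3.16 (2.83 to 3.52), and to 8.46 at 0 h. Within rows A to H the ratio was 4.21 at 72 h and 3.6 at 96 h. Serpinh1, the collagen chaperone HSP47, had 9.28, 12.6 and 10.8 UMIs per 10000 against 1.01, 1.53 and 2.82. Per well at 60 h Serpinh1 lay between 7 and 12.9 UMIs per 10000 in matrix-rich wells, and between 0 and 9.2 in the other wells. Plod2, a lysyl hydroxylase, had 3.09, 6.53 and 9.4 UMIs per 10000 in matrix-rich wells and 0.619, 1.03 and 1.53 in the other wells, and was found in 80.2% and 30.4% of thinned wells at 96 h. P4ha1, the catalytic subunit of prolyl 4-hydroxylase, had 3.09, 3.39 and 3.71 against 0.202, 0.269 and 0.765, and P4hb, its partner subunit, 9.54, 9.8 and 11.4 against 3.16, 3.24 and 4.23.

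The general secretory machinery followed with smaller ratios. Of 21 ER and translocon genes compared, 8 were past 1.5-fold higher on every plate and 12 at both 72 h and 96 h, and none was lower. Their sum was 141, 111 and 108 UMIs per 10000 against 65.6, 51.9 and 56.5, a ratio of 2.15, 2.14 and 1.91. Calr, the chaperone calreticulin, had 14.2 against 4.47 UMIs per 10000 at 96 h, Hspa5 (BiP) 14.2 against 7.89, and Hsp90b1 (GRP94) 18.3 against 9.01. Lysosomal genes had ratios of 2.8, 2.26 (2.69 within rows A to H) and 2.14, with 5 of 7 past 1.5-fold higher on every plate, among them the protease Ctsl with 8.08 against 4.02 UMIs per 10000 at 96 h.

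The remaining basement membrane genes had ratios on both sides of 1. None of the 7 compared was past 1.5-fold higher on every plate. Over all genes this share was 4.75%, so a count of none among 7 says nothing about these members. Their sum had a ratio of 0.71 at 60 h (0.448 to 1.07), 1.02 at 72 h (0.778 to 1.32) and 1.35 at 96 h (1.17 to 1.57), or 1.6 at 96 h within rows A to H. At 0 h the list summed to 13.2 UMIs per 10000, against 14.3 in matrix-rich and 10.5 in other wells at 96 h. Col18a1, the chain of type XVIII collagen, was lower on every plate, with 0.258, 0.502 and 1.68 UMIs per 10000 against 2.96, 2.57 and 4.14. At 96 h alone, 1647 of 5576 genes (29.5%) were past 1.5-fold higher and 1113 (20%) lower, and of this list 5 of 11 were higher and 2 lower. Nidogen 1 and 2, which link laminin to collagen, were among the 5. Nid1 had 2.71 against 0.563 UMIs per 10000 and Nid2 2.86 against 0.845. Pxdn, the peroxidase that crosslinks type IV collagen, had 2.05 against 0.402. At 60 h Nid1 had no UMI in the 5 matrix-rich wells, which allows up to 0.774 UMIs per 10000. Of 5 cell surface receptors for matrix that were compared, 1, the syndecan Sdc4, was past 1.5-fold higher on every plate, and their sum had a ratio of 1.14, 1.08 and 1.3.

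**Figure D4:**
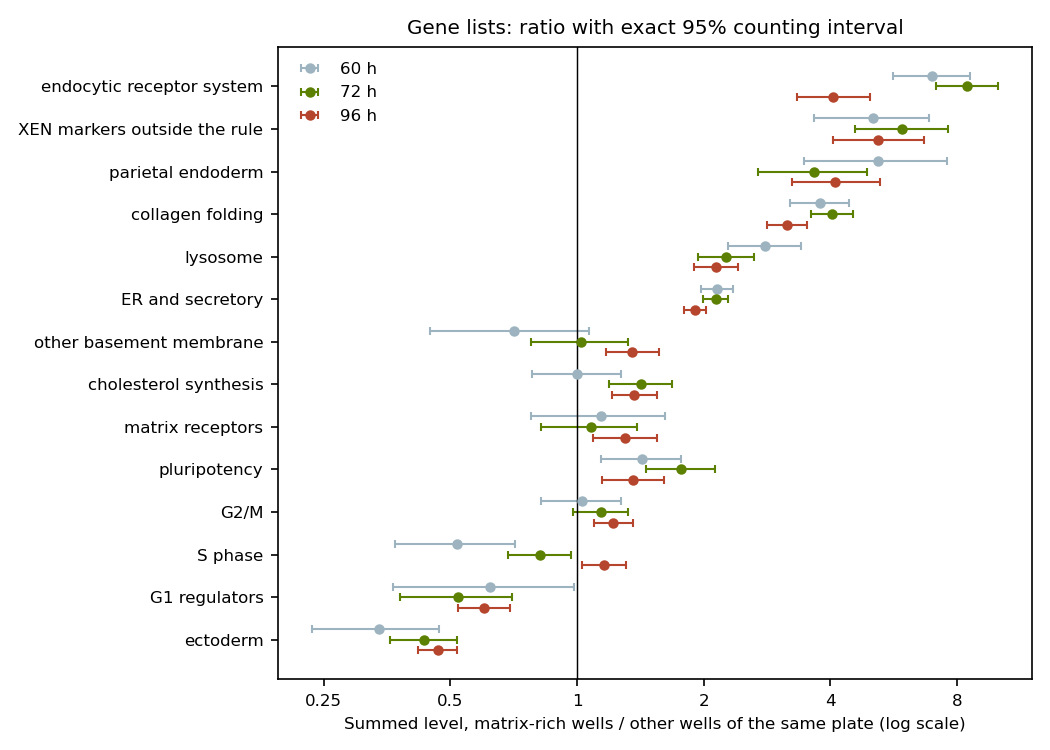
Ratio of the summed level of 14 gene lists in matrix-rich wells to that in the other wells of the same plate (x axis, log scale; 1 is no difference) at 60 h, 72 h and 96 h, with exact 95% counting intervals. The endocytic receptor system, the XEN markers outside the selection and the parietal endoderm list lie between 3.66 and 8.45, the collagen folding list between 3.16 and 4.04, and the ectoderm list lowest, between 0.338 and 0.467.

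Markers of the ectoderm-like fate were lower in matrix-rich wells but not absent. Of 10 genes compared, 8 were past 1.5-fold lower on every plate and 9 at both 72 h and 96 h. The list summed to 9.03, 15.6 and 14.1 UMIs per 10000 in matrix-rich wells, against 26.7, 35.9 and 30.1 in the other wells and 2.25 at 0 h, so that the matrix-rich wells lay between the mESCs and the other wells. The ratio was 0.338 (0.235 to 0.471), 0.433 (0.36 to 0.518) and 0.467 (0.42 to 0.519), and 0.412 at 96 h within rows A to H. Prtg, an immunoglobulin-domain protein of the early neural tube, had 0.774, 3.64 and 3.49 UMIs per 10000 against 7.93, 9.93 and 7.4. Mdk, the growth factor midkine, had 5.67, 5.28 and 3.75 against 9.44, 10.7 and 7.0. Cd24a, the surface antigen used for the sort of the bulk cells, had 1.41 against 3.26 at 96 h. Per well at 96 h, the ectoderm list took between 0% and 0.472% of UMIs in matrix-rich wells, with a median of 0.117%, and between 0% and 0.785% in the other wells, with a median of 0.273%. The ranges overlapped, and 5 of 81 matrix-rich wells had no UMI of these genes.

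Genes of the RA pathway went in both directions. Cyp26a1, which breaks RA down, had 8.25, 6.53 and 4.54 UMIs per 10000 in matrix-rich wells and 3.02, 1.22 and 1.13 in the other wells, with ratios of 2.73 (1.85 to 3.9), 5.34 (3.82 to 7.37) and 4.03 (2.71 to 6.21). Crabp2, which carries RA to its nuclear receptors, had no UMI in the matrix-rich wells at 60 h and 0.502 and 0.511 UMIs per 10000 at 72 h and 96 h, against 2.64, 2.47 and 3.14. It had the lowest geometric mean ratio of all genes past the threshold. Hox genes of the A and B clusters summed to 0.258, 1.88 and 0.682 UMIs per 10000 against 6.75, 5.63 and 1.61 (a ratio of 0.424 at 96 h, and 0.192 within rows A to H), and Hoxb2, the 1 member that could be compared on every plate, was lower on each.

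Pluripotency genes were divided. Dppa5a, a marker of mESCs, was past 1.5-fold higher on every plate, with 12.1, 9.04 and 5.01 UMIs per 10000 in matrix-rich wells, 7.01, 3.06 and 0.644 in the other wells, and 46.5 at 0 h. At 96 h it ranged from 0 to 95.2 UMIs per 10000 between matrix-rich wells, with a median of 1.75, and from 0 to 6.44 in the other wells. The whole list took 0.0523% to 0.668% of UMIs in the 5 matrix-rich wells at 60 h. Their median was 0.153%, against 0.141% in the other wells. Klf4, a transcription factor of the naive state, was not found in the 5 wells at 60 h and had 2.64 against 0.204 UMIs per 10000 at 72 h and 1.58 against 0.241 at 96 h. Sox2, which is shared by pluripotent and neural cells, was lower on every plate, with 0, 0.126 and 0.767 UMIs per 10000 against 1.04, 1.66 and 2.41. Nanog lay on both sides, with 9.03, 3.14 and 2.68 against 6.66, 3.57 and 4.31. Pou5f1, a core pluripotency factor, had no UMI in any kept well at 96 h, which allows up to 0.0639 UMIs per 10000 in matrix-rich wells, and 1.76 UMIs per 10000 at 0 h. This gene was named after its values were seen.

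Among growth factor signalling genes, Dusp9, a phosphatase of the MAP kinase ERK, had 4.64, 4.4 and 3.11 UMIs per 10000 against 0.756, 0.432 and 0.684, and the receptor Fgfr1 had 0.258, 0.126 and 0.682 against 1.26, 1.21 and 1.61. Both were past 1.5-fold on every plate. Of adhesion genes, the tight junction protein Cldn6 was higher on every plate, with 1.29, 1.63 and 0.682 against 0.226, 0.139 and 0.201, and N-cadherin (Cdh2) was lower, with 0.516, 0.502 and 1.04 against 1.15, 2.55 and 3.02. Vim, the intermediate filament vimentin, had 6.78 and 6.04 UMIs per 10000 at 96 h. Cell cycle lists for S phase (ratio 0.52, 0.817 and 1.16) and for G2 and mitosis (1.03, 1.14 and 1.22) had no gene past the threshold in either direction on every plate. Over all genes 4.75% were higher and 5.74% lower on every plate, so these counts say nothing about the lists. At 96 h alone 6 of 12 G2 and mitosis genes and 4 of 13 S phase genes were past 1.5-fold higher. None was lower by this much, against 29.5% higher and 20% lower over all genes. Within rows A to H at 96 h the S phase ratio was 0.882 (0.739 to 1.06). The G1 regulator Ccnd2 was lower, with 0.774, 3.64 and 2.83 against 1.93, 5.61 and 5.83. Of 11 cholesterol synthesis genes 2 were higher on every plate, among them the regulator Insig1 with 4.05 against 0.885 at 96 h. Markers of other cell types were near 0: mesoderm genes summed to 0.256 and trophoblast genes to 0.107 UMIs per 10000 in matrix-rich wells at 96 h, and T and Cdx2 had no UMI in matrix-rich wells at any of the 3 times.

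The 10 genes with the highest geometric mean ratio over the 3 plates were Cubn, P4ha1, Smim14, B4galt1, Cited1, Srgn, Lgmn, Pth1r, Pdgfra and Lrpap1. Srgn, the core protein of a secreted proteoglycan, had 3.87, 2.39 and 4.47 UMIs per 10000 against 0.292, 0.277 and 0.765, and was found in 58.0% of thinned matrix-rich wells and 12.5% of thinned other wells at 96 h. B4galt1, a galactosyltransferase of the Golgi, had 3.87, 2.39 and 2.9 against 0.256, 0.4 and 0.362. Cited1, a transcriptional coregulator, had 2.58, 2.26 and 1.66 against 0.161, 0.163 and 0.523, and Lgmn, a lysosomal protease, 2.06, 1.0 and 0.831 against 0.0953, 0.106 and 0.282. Smim14 had 50 UMIs in matrix-rich wells and none in the other wells at 96 h, a ratio of at least 6.92 by its counting interval. Among the 10 with the lowest ratio were Crabp2, Sms, Gm7102, Sox2, Prom1, Vcan, Dcdc2c, Msi2 and Prpf4. Gm7102 and Dcdc2c had the highest levels of those named in the other wells, with 19.3 and 19.4 UMIs per 10000 at 60 h and 18.5 and 15.1 at 72 h, against 1.55 and 1.55 and 2.14 and 2.51 in matrix-rich wells. At 96 h the other wells had only 1.17 and 1.01. The levels of these 2 genes lay close together in both classes, and whether their counts share reads was not examined, so they may not be separate measurements. Vcan, a matrix proteoglycan of mesenchyme and neural tissue, had 0.258, 0 and 1.26 UMIs per 10000 against 1.8, 1.43 and 2.41. Prpf4, a splicing factor, had 0.724 against 1.13 at 96 h, with an interval of the ratio of 0.378 to 1.1.

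Within the 96 h plate several groups of genes were set against the matrix share across wells. The XEN markers outside the selection had 2.4 UMIs per 10000 in the 14 wells with a matrix share under 0.25%, 2.16 in the 31 wells from 0.25% to 0.5%, 5.77 in the 11 wells up to 0.75%, 5.5 in the 8 wells up to 1%, 13.1 in the 35 wells up to 1.5%, 15.5 in the 15 wells up to 2% and 20.5 in the 23 wells above that. The 8 wells just above the threshold (3.08 to 9.07) were not separated from the 11 just below it (3.86 to 8.28). The ectoderm list had 26, 31.9, 29, 22, 17.5, 12.2 and 8.37 UMIs per 10000 in the same order of bins. For this list too the 8 wells just above the threshold (16.8 to 28.3) were not separated from the 11 just below it (24.5 to 34.1). Collagen folding genes had 12.6, 14.4, 23.1, 35.2, 43.6, 46.8 and 66. Pluripotency genes lay between 7.09 and 10.3 below 2% and at 14.4 above. The other basement membrane genes rose up to the bin ending at 1% and not beyond it, with 6.79, 10.4, 14.7, 18.7, 13.7, 12.7 and 15.6. The post-implantation epiblast genes had no such order and lay between 0.553 and 3.3. Across the 137 wells, which share 1 library and differ in depth, the matrix share had a Pearson correlation of 0.637 with the share of XEN markers (Spearman 0.729) and of -0.497 with that of the ectoderm list (-0.517). Within the 81 matrix-rich wells the Pearson values were 0.426 and -0.284, and within the 56 other wells 0.349 and 0.0848. Within the 18 matrix-rich wells at 72 h they were 0.171 and -0.02. For the other basement membrane genes at 96 h the Pearson value was 0.238 over all wells, 0.115 within the matrix-rich and 0.335 within the other wells. At 72 h it was 0.513 within the matrix-rich wells.

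Matrix-rich wells at 96 h were also set against those at 60 h. Of 4424 genes with at least 20 UMIs over both sets, 1767 (39.9%) were at least 2-fold higher and 590 (13.3%) at least 2-fold lower at 96 h, with a median ratio of 1.53 over all genes. The 60 h values rest on 38780 UMIs outside the 6 genes from 5 wells, and the part of this depth in the median was not tested. Each time point was 1 culture and 1 plate, so time, culture and plate cannot be told apart. The 5 genes with the highest ratio, Tsn, Larp4, Nid1, Zfp706 and Galk1, had no UMI at 60 h and between 124 and 132 UMIs at 96 h. They entered the comparison through their 96 h UMIs alone and were picked as the extreme of 4424 genes. No rise is therefore read from them. The 5 with the lowest ratio were Fam46a (3.61 UMIs per 10000 at 60 h and 0.192 at 96 h), Ap3b1 (4.9 and 0.426), Dnmt3l (3.09 and 0.277), Gm13157 (2.58 and 0.234) and Spen (2.58 and 0.234). These were picked as the extreme of 4424 genes too, and their 60 h levels rest on few UMIs from 5 wells. All but Ap3b1 reached 20 UMIs only with those of 60 h. No fall is therefore read from them. Dnmt3l is a cofactor of de novo DNA methylation. Summed over lists, the other basement membrane genes had a ratio of 2.4 (1.59 to 3.82), pluripotency genes 0.465 (0.37 to 0.592), endocytic receptor genes 0.688 (0.562 to 0.849) and ER genes 0.764 (0.7 to 0.836). The other basement membrane genes had 5.93 UMIs per 10000 at 60 h and 14.3 at 96 h, against 13.2 in mESCs at 0 h. Pluripotency genes took between 0.0523% and 0.668% of UMIs in the 5 wells at 60 h. The XEN markers outside the selection did not differ beyond counting error (1.26, 0.934 to 1.72).

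The genes that set matrix-rich wells apart were then examined in the sorted bulk cells, which the selection did not use. The sorted libraries held between 1130189 and 2044058 UMIs. The ectoderm-like libraries lay apart for part of these genes. Of the 233 tested genes higher in matrix-rich wells, 41 (17.6%) were at least 2-fold higher in ectoderm-like replicate 2 than in replicate 1 and 4 (1.72%) at least 2-fold lower, on the scale of CPM (counts scaled to the same library total) with 1 added, against 4.29% and 6.62% of all genes tested. Pdgfra, which was used for the sort, had 2.87 CPM in replicate 1 and 32.3 in replicate 2, and Srgn 8.13 and 79.8. The part of this in the results was not tested beyond leaving out each library. In edgeR's quasi-likelihood test with Benjamini-Hochberg adjustment (adjusted p under 0.05), sorted XEN-like cells had 624 of 8947 genes higher (6.97%) and 513 lower (5.73%) than sorted ectoderm-like cells. Of the 239 genes higher in matrix-rich wells, 233 were tested, and 134 (57.5%) were called higher and none lower. Of the 289 genes lower in matrix-rich wells, 268 were tested, and 85 (31.7%) were called lower and none higher. Their median log2 fold changes were 1.34 and -0.86, against -0.06 over all genes tested. Leaving out a library left 1 in its group, which was assumed to vary like the other groups of the 6-library fit. Without replicate 1 of the ectoderm-like cells these counts were 53 and 43, and over all genes 136 and 131. Without replicate 2 of the ectoderm-like cells, replicate 1 of the XEN-like cells or replicate 2 of the XEN-like cells, the genes lower in matrix-rich wells had 62, 54 and 53 calls. Over all genes there were then 461 higher and 234 lower, 316 and 158, and 346 and 214. In sorted bulk cells, a lower number of cells of one type and less RNA per cell cannot be told apart.

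**Figure D5:**
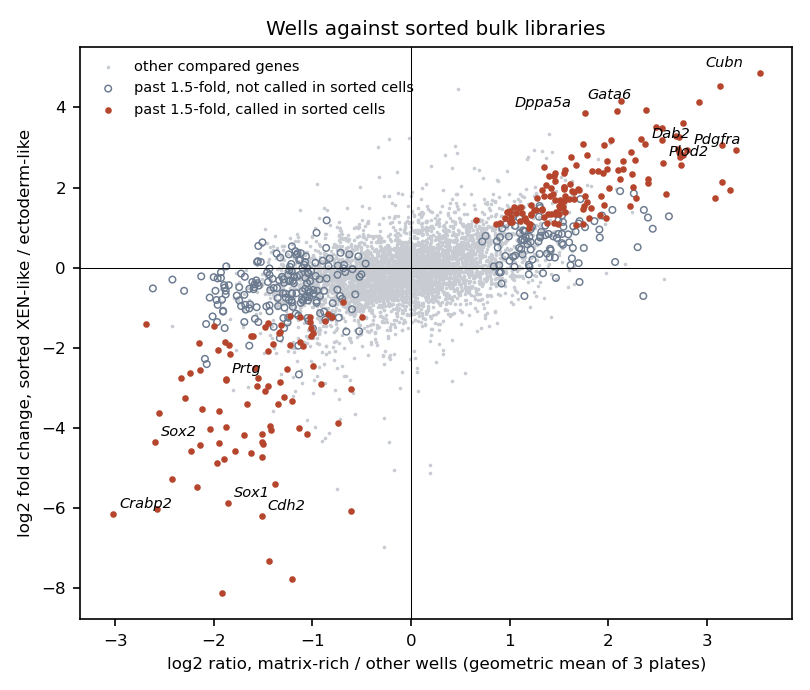
Log2 ratio of matrix-rich to other wells (x axis, geometric mean of the 3 plates) against the log2 fold change of sorted XEN-like to sorted ectoderm-like cells (y axis), 1 point per gene; coloured points were past 1.5-fold on every plate and filled ones were called in the sorted cells. All 134 filled points on the right lie above 0 on the y axis, and all 85 on the left lie below.

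All 5 XEN markers outside the selection were called higher in sorted XEN-like cells, of which Pdgfra was used for the sort. Gata6 had 134 and 92.5 CPM in the XEN-like libraries, 5.26 and 9.62 in the ectoderm-like libraries, and 0.472 and 0.491 in mESCs (log2 fold change 3.90 ± 0.40 SE, n = 2 and 2, edgeR adjusted p = 0.0006683). Dab2 had 1149 and 963 CPM against 26.3 and 212 (3.09 ± 0.68, edgeR adjusted p = 0.01262). The ectoderm-like libraries lay far apart for this gene as for Pdgfra and Srgn, and both lay below the XEN-like ones. Without ectoderm-like replicate 1 its log2 fold change was 2.27 and without replicate 2 it was 5.39. Cubn had 214 and 75.8 CPM against 0.956 and 9.06, with a log2 fold change of 4.86 ± 0.70, which was 3.96 without ectoderm-like replicate 1 and 7.22 without replicate 2. All 4 tested genes of the endocytic receptor system were called higher. Without ectoderm-like replicate 1, 4 of the 5 XEN markers and 3 of these 4 genes were called, and without XEN-like replicate 1 all 5 and 3.

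Collagen folding and secretion were also higher in the sorted XEN-like cells. Of the collagen folding list 10 of 12 tested genes were called higher, of the ER list 16 of 22, of the lysosome list 5 of 9 and of the parietal endoderm list 3 of 4, and none of these lists had a gene called lower. Without ectoderm-like replicate 1 the ER list had 1 call and the lysosome list none (edgeR, 6 at an unadjusted p under 0.05), while the collagen folding list had 8. Without ectoderm-like replicate 2 the ER list had 10 calls and without XEN-like replicate 1 it had 8. Serpinh1 had 841 and 649 CPM against 70.3 and 144 (log2 fold change 2.75, edgeR adjusted p = 0.002575), and Plod2 had 286 and 367 against 20.1 and 82.7. Of the other basement membrane genes, 2 were called higher and 2 lower. Nid1 was higher, with 78.5 and 50.9 CPM against 4.78 and 6.79, and Col18a1 was lower, with 3.23 and 3.70 against 95.2 and 51.0. In mESCs Nid1 had 36.8 and 39.8 CPM and Col18a1 19.4 and 11.8. Nid2 and Pxdn, which were higher in matrix-rich wells at 96 h, were not called, with log2 fold changes of 1.16 and 0.41.

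All 11 ectoderm markers were called lower in the sorted XEN-like cells, of which Cd24a was used for the sort, and between 9 and 11 when a library was left out. Crabp1 had 12.5 and 14.8 CPM in the XEN-like and 555 and 668 in the ectoderm-like libraries, and Prtg 35.1 and 29.6 against 240 and 200. Crabp2, the gene with the lowest ratio in the wells, had 14.8 and 19.4 CPM against 1368 and 974, a log2 fold change of -6.16 ± 0.34 (edgeR adjusted p = 7.45e-06). Sox2 had 1.39 and 3.70 against 47.3 and 44.2. The divided pluripotency genes were divided here too: 5 of 12 were called higher and 1, Sox2, lower. Dppa5a had 5410 and 4414 CPM in XEN-like cells, 425 and 239 in ectoderm-like cells, and 11865 and 17875 in mESCs. Pou5f1, which had no UMI in the wells at 96 h, had 55.0 and 16.6 CPM in XEN-like and 2.87 and 0.566 in ectoderm-like cells, and was called higher (log2 fold change 4.29 ± 0.66, edgeR adjusted p = 0.002538). Scaled to the same total, the upper limit given for matrix-rich wells lies below both XEN-like values. Wells and sorted cells thus differ for this gene, and the cause was not tested. Cyp26a1 had 246 and 150 CPM against 27.7 and 18.7, and was called higher. Of the trophoblast list, 1 of 2 tested genes was called higher, Plac1, with 58.7 and 52.7 CPM against 1.91 and 6.79. The 1 tested mesoderm gene, Twist1, was called lower. Of the 20 genes with the most extreme ratios in the wells, all 10 on the higher side were called higher, and 7 of the 10 on the lower side were called lower. The exceptions were Gm7102, Dcdc2c and Prpf4, with log2 fold changes of -0.52, -0.30 and -0.58.

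Sorted cells after 72 h had 1 library per fraction and therefore no replicate check. The PDGFRA+/CD24- library was at least 1.5-fold above each of the 3 PDGFRA- libraries for 1185 of 8947 genes (13.2%) and at least 1.5-fold below each for 1274 (14.2%), on the scale of CPM with 1 added. For the genes higher in matrix-rich wells this was 166 (71.2%) above and 1 below, and for those lower 108 (40.3%) below and 2 above. Dab2 had 1046 CPM in the PDGFRA+ library and 131, 52.0 and 32.4 in the PDGFRA- libraries of the CD24 terciles T1, T2 and T3. Cubn had 133 CPM in the PDGFRA+ library, which lay between the 214 and 75.8 of the XEN-like libraries at 96 h. Gm7102, which was not called at 96 h, had 39.4 CPM in the PDGFRA+ library and 1508, 411 and 123 in the same order, and Dcdc2c had 26.5 against 671, 213 and 59.2.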

How the data were processed

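The authors aligned reads with BWA 0.7.4 to mouse RefSeq transcripts and deposited UMI counts per gene and well or bulk library, without normalization. Wells above 2000 UMIs were kept and pooled by class. Levels are UMIs per 10000 outside the 6 selection genes, with exact 95% Poisson intervals, and ratios have exact conditional binomial intervals. A value of 0 was given an upper limit of 3 counts. For shares of wells with a UMI, each well was thinned to 2000 UMIs. For the sorted cells, edgeR 4.0.16 (R 4.3.3) fitted a quasi-likelihood model to 6 bulk libraries with TMM factors and its default filter. DESeq2 1.42.0 was the alternative. The step was tested on simulated data. The other 15 bulk columns were not used.

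The members and the gene lists were chosen with earlier results of these data known. Genes named in the text are the 2 to 4 members of each list with the most UMIs in matrix-rich wells, the 10 highest and 10 lowest ratios past 1.5-fold on every plate, and the 5 most extreme each way between 60 h and 96 h. Malat1 and Pou5f1 were named after their values were seen. Some genes that this rule takes, and the list results that need them, are not reported here.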

Additional observations from a re-analysis of the deposited data

Results flagged for a closer look

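Wells with 2000 UMIs or fewer entered no comparison, but they carried signal of the 6 matrix genes above that of such wells at 0 h, where it was 0.0354% of their UMIs. The share was 0.131% in 111 wells at 60 h, 0.172% in 149 wells at 72 h and 1.17% in 247 wells at 96 h. The wells left out at 96 h had a median of 716 UMIs, and the XEN markers outside the selection had 13.2 UMIs per 10000 in them, against 15.2 in the matrix-rich and 2.94 in the other kept wells. The ectoderm list had 19.6. How many of these wells were matrix-rich cannot be read at this depth.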

How the results depend on the processing

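Under other thresholds, UMI minimums and thinning, the share of matrix-rich wells was 1.1% to 3.66% at 60 h, 6.12% to 8.94% at 72 h and 53.3% to 67.2% at 96 h, while by plate rows it was 13.1% in A to H and 0.952% in I to P at 72 h. The counts of genes past 1.5-fold on every plate (239 higher, 289 lower) moved with what was compared: to 102 and 107 of 2232 genes after thinning to 2000 UMIs, to 130 and 85 with at least 50 UMIs per plate, to 521 and 477 without the 60 h plate, to 553 and 551 without the 72 h plate, and to 528 and 1576 without the 96 h plate. With at least 10 UMIs per plate 505 genes were lower, and within plate rows A to H, an alternative chosen after seeing the data, 157. For 96 h against 60 h, at least 50 UMIs left 596 higher and 183 lower. Of the 239 higher and 289 lower genes, 211 and 251 were shared when wells were ranked without Sparc, 172 and 154 at a threshold of 0.5%, 164 and 207 at 1%, 169 and 214 with equal weight per well, and 142 and 133 in wells above 4000 UMIs. In single genes, 2 values turned direction at 96 h: Prpf4 to 1.59 in wells above 4000 UMIs and Dnmt3a to 1.23 after thinning. Within rows A to H, summed lists that turned direction were keratins at 72 h (0.926 to 1.26) and, at 96 h, keratins (1.17 to 0.959), S phase (1.16 to 0.882), mesoderm (0.276 to 1.12) and yolk sac carriers (1.59 to 0.719). The cause was not tested. Smim14 had no ratio to vary at 96 h, since the other wells had no UMI of it.

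In the sorted libraries, DESeq2 called 283 genes lower, and 831 were lower without a filter on low counts. Leaving out 1 library at a time gave 136 to 461 higher and 131 to 234 lower genes, and 53 to 120 and 43 to 62 among those past 1.5-fold in the wells. A replicate block on the 4 sorted libraries gave 1312 higher and 1267 lower genes (694 and 563 on the same libraries without it), with 192 and 131 among those past 1.5-fold in the wells. Deviations of same-numbered libraries had r = 0.332 across 8947 genes. With 2 pairs this does not establish pairing, so the libraries share only a number. Depth limits the 60 h values most, where 1 UMI in the 5 matrix-rich wells is 0.258 UMIs per 10000.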

Other observations

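Further groups of genes showed little difference or few counts. Keratins of simple epithelia summed to 2.06, 1.76 and 4.58 against 1.53, 1.9 and 3.9, a ratio of 1.35, 0.926 and 1.17 (1.4, 1.26 and 0.959 within plate rows A to H), and neither of the 2 compared was past 1.5-fold on every plate, although Krt8 was found in 39.5% of thinned matrix-rich wells and 17.9% of thinned other wells at 96 h. Post-implantation epiblast genes summed to 0.774, 0.502 and 1.6 against 1.91, 1.52 and 1.45, with Dnmt3a lower on every plate. The ratio of this list at 96 h was 1.1 (0.732 to 1.69), and 1.92 within rows A to H (0.943 to 4.3). Stress and apoptosis genes summed to 4.13, 4.65 and 3.58 against 2.52, 2.92 and 3.42, and none of the 3 compared was past 1.5-fold on every plate. With 4.75% of all genes higher and 5.74% lower on every plate, counts of none in such short lists say nothing about their members.

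Single wells stood apart. At 48 h the 1 well above the threshold had 2783 UMIs and a matrix share of 0.826%, while the highest of the other 276 wells had 0.475%. At 96 h 1 matrix-rich well had 1.05% of its UMIs in pluripotency genes, against a median of 0.0716% in the matrix-rich wells and a highest value of 0.289% in the other wells.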
